A study of Mus musculus with 12 samples.

Results

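Between the genes of wild-type mouse fibroblasts lay 25326 regions of H3K27me3, the trimethylated form of lysine 27 on histone H3, of 45953 autosomal regions (55.1%) and of 46759 regions when chromosome X was counted. They were chosen by the peak lists of both wild-type libraries of experiment 1: peaks that overlapped by 1 bp or more were merged, and an autosomal region was kept where it held peaks of both lists, was narrower than 20000 bp, and met neither the body of a protein-coding gene nor the 2500 bp on either side of its transcription start site (TSS). Their wild-type coverage in experiment 1 was therefore given by the choice and is described without a test. The remaining autosomal regions were 5551 at promoters, 14299 inside gene bodies and 777 domains of 20000 bp or more.

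All groups came from a single clone of immortalized embryonic fibroblasts (iMEFs, named C2), transformed with c-Myc, that carried an Ezh2 flox/Δ genotype and a tamoxifen-activated Cre recombinase expressed from the ROSA26 locus (ROSA26-CreERT2). In experiment 1 the mark was precipitated with an Active Motif antibody from Ezh2 -/- cells, deleted with 4-hydroxytamoxifen (knockout, 2 libraries), and from cells labelled Ezh2 WT/WT (wild type, 2 libraries). In experiment 2, with antibody clone 7b11, the groups were an Ezh1 and an Ezh2 pre-rescue, in which a retroviral Flag-tagged Ezh1 or Ezh2 was introduced before deletion of the endogenous gene (1 library each), Ezh2 -/- cells (2 libraries) and Ezh2 WT/WT cells (2 libraries). Antibody, sequencing platform and read length changed together between the experiments and cannot be told apart. Replicates came from 1 clone, and the study calls its replicates biological without saying how they were obtained. The labels do not say that they were separate cultures, so the spread between them may be technical.

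H3K27me3 is laid down by the Polycomb repressive complex PRC2, whose catalytic subunit is Ezh2 or its less active paralog Ezh1, together with Eed and Suz12. The complex is best known at the CpG-rich promoters of silent developmental genes. From such sites the mark can spread over neighbouring chromatin, and it also covers long stretches between genes, where distal enhancers and unannotated or non-coding transcripts lie.

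The lists held the start and end of each peak and no height, so the measures are whether a region had a peak and how many of its bases lay under peaks; read depth behind a single peak is unknown, and fewer cells with the mark and less of it per cell cannot be told apart. The knockout lists held 36477 and 55563 peaks in experiment 1, against 82566 and 82407 in wild type. In experiment 2 the Ezh1 rescue list held 114211 peaks, the Ezh2 rescue list 64628, the knockout lists 29 and 382 and the wild-type lists 18284 and 13417. Before peaks were called, the libraries had been reduced to a common number of reads, and a coefficient set by the amount of DNA recovered in the precipitation was applied for the knockout and the Ezh1 rescue. The Ezh1 rescue was sequenced in experiment 2 only, so its scaling applies there, and no coefficient is named for the Ezh2 rescue. For the knockout, the methods do not say whether scaling was done in both experiments. Both coefficients given in the methods were reductions, the stronger one for the knockout. Where a library was scaled, a lower number of peaks cannot be told apart from that scaling, and the size of any difference includes it. The effect of the scaling on the peaks was not tested. Peak lists cannot show whether Ezh2 was deleted. As a check on cell type, of 24 autosomal fibroblast genes (collagens and other matrix genes) 0 carried a wild-type region at the promoter, against 15 of 20 epithelial genes, 11 of 21 blood and endothelial markers and 4438 of all 21281 autosomal protein-coding gene names.

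The sequences that the results turn on are given first, each as the 200-bp window of the region with most CpG dinucleotides, read 5′ to 3′ on the plus strand of mm9, with each CpG in capitals. The first 3 lie in regions at the neural microRNA genes Mir129-2 and Mir124a-1 and beyond the HoxB cluster, the fourth in the region of at least 1000 bp with the highest CpG ratio, and the fifth in a region with a peak in both knockout libraries of experiment 1.
Region at Mir129-2, chr2:94081579-94081778: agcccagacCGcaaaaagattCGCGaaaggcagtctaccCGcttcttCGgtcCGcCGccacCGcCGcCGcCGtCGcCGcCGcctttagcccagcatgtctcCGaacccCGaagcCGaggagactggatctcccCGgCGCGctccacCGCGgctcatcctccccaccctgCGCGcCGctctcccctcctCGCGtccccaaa
Region at Mir124a-1, chr14:65207598-65207797: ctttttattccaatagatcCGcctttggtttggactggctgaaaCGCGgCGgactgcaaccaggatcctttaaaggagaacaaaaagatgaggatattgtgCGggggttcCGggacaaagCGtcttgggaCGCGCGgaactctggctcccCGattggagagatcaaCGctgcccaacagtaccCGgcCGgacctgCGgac
Region beyond Hoxb1, chr11:96269047-96269246: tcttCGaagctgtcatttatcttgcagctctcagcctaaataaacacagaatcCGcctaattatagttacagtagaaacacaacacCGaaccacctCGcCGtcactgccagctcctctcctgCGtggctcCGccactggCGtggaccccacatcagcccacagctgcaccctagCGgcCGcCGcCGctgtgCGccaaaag
Region with the highest CpG ratio, chr17:48233762-48233961: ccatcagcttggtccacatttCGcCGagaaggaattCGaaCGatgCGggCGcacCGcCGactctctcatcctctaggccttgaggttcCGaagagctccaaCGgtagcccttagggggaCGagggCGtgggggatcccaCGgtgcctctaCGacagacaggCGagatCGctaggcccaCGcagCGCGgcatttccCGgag
Region upstream of Lhx5, chr5:120730292-120730491: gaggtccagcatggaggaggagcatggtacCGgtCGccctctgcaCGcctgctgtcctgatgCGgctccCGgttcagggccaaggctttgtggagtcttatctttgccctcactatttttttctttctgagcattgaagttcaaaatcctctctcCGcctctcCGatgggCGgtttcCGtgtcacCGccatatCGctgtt
These windows held 27, 15, 13, 20 and 11 CpG dinucleotides in that order. Over the 25298 regions of at least 200 bp, the most CpG-dense window held a median of 5 (quartiles 3 to 6, highest 35).

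Most intergenic regions were a few kb wide or less and had another region nearby. Their median width was 1982 bp (quartiles 1094 to 3800, range 150 to 19986), against 3134 bp at promoters and 2103 bp in gene bodies. Together they spanned 77.0 Mb, or 44.6% of the bases of all autosomal regions, and covered 5.49% of the 1401 Mb of intergenic sequence, at 18.1 regions per Mb. The median distance to the nearest protein-coding TSS was 44472 bp (quartiles 17070 to 105288), and 17105 regions (67.5%) lay upstream of the gene they were nearest to. The choice left out gene bodies, which lie downstream of their own TSS, and so favoured upstream positions. The upstream share of all intergenic sequence is not given, so 67.5% is not a trait of the regions. A further reproducible region lay within 5000 bp of 20155 of them (79.6%), and within 50000 bp of all but 695. The median gap was 1161 bp, against 955 bp for promoter and 991 bp for gene-body regions. At the width limit that the choice set, the 3 widest members measured 19986, 19948 and 19923 bp, with 96.7% and 91.1%, 88.1% and 96.3%, and 95.5% and 100% of their bases under the peaks of wild-type replicates 1 and 2. The 3 narrowest gene-free domains just over the limit, of 273 such domains, measured 20039, 20057 and 20058 bp, with 77.9% and 100%, 99.6% and 99.2%, and 96.7% and 98.1% of their bases under those peaks.

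Sequence composition set the intergenic regions between promoter regions and the surrounding intergenic DNA. The median GC content was 43.7% (quartiles 40.7 to 46.6) in the intergenic regions, 47.1% at promoters and 45.4% in gene bodies. The CpG ratio, the number of CpG dinucleotides divided by the number that the C and G content alone would give, had a median of 0.170, against 0.214 at promoters and 0.190 in gene bodies. With all bases pooled, GC content was 43.9% in the regions and 40.7% in the 1302 Mb of intergenic sequence outside every reproducible region, and the CpG ratio was 0.183 against 0.171. A window like a CpG island, 200 bp with at least 50% GC and a CpG ratio of at least 0.6, was found in 2903 intergenic regions (11.5%), against 38.2% of promoter regions, 18% of gene-body regions and 80.8% of the broad domains. Width differed between these classes. Regions holding such a window numbered 37.7 per Mb in intergenic regions, 83.4 at promoters, 55.0 in gene bodies and 27.0 in the broad domains. A region counted once however many such windows it held, so this number is capped in wide regions and does not correct for width. The most CpG-dense window held a median of 5 CpG dinucleotides in intergenic regions, 7 at promoters, 6 in gene bodies and 11 in the broad domains. Regions are not replicates of a condition, so these medians and counts carry no test.

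Few intergenic regions had a peak in the Ezh2 knockout of experiment 1. Knockout replicate 1 had a peak on 594 regions (2.35%, Wilson 95% interval 2.17 to 2.54, counting error only) and replicate 2 on 1162 (4.59%, 4.34 to 4.85). Either library had one on 1260 regions (4.98%), against 5.87% of all autosomal regions, 7.04% at promoters and 6.65% in gene bodies. Both libraries had one on 496 regions (1.96%), against 2.37% of all autosomal regions. Knockout peaks lay over 0.587% and 1.80% of the bases of the intergenic regions, 1.19% ± 0.858 (SD, n = 2), and wild-type peaks over 71.3% and 89.1%, 80.2% ± 12.6 (SD, n = 2); the wild-type value was fixed by the choice.

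The knockout peaks of experiment 1 did not gather on these regions. Replicate 1 covered 0.587% of the bases inside the intergenic regions and 1.12% of the intergenic bases outside every reproducible region, a ratio of 0.524. Replicate 2 covered 1.80% inside and 2.49% outside, a ratio of 0.722. In both knockout libraries, then, coverage was lower inside than outside. Of their 36427 and 55489 autosomal peaks, 725 (1.99%) and 1431 (2.58%) touched an intergenic region, and 1612 (4.43%) and 3292 (5.93%) touched a reproducible region of any class. In the other libraries coverage was higher inside than outside, by 11 times with Ezh1 rescue, 20.1 times with Ezh2 rescue, 34.9 and 31.9 times in the knockout of experiment 2 and 18.6 and 17.9 times in its wild type. The knockout ratios of experiment 2 rest on few peaks, since 3 of 29 and 55 of 382 autosomal peaks touched an intergenic region.

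**Figure D1:**
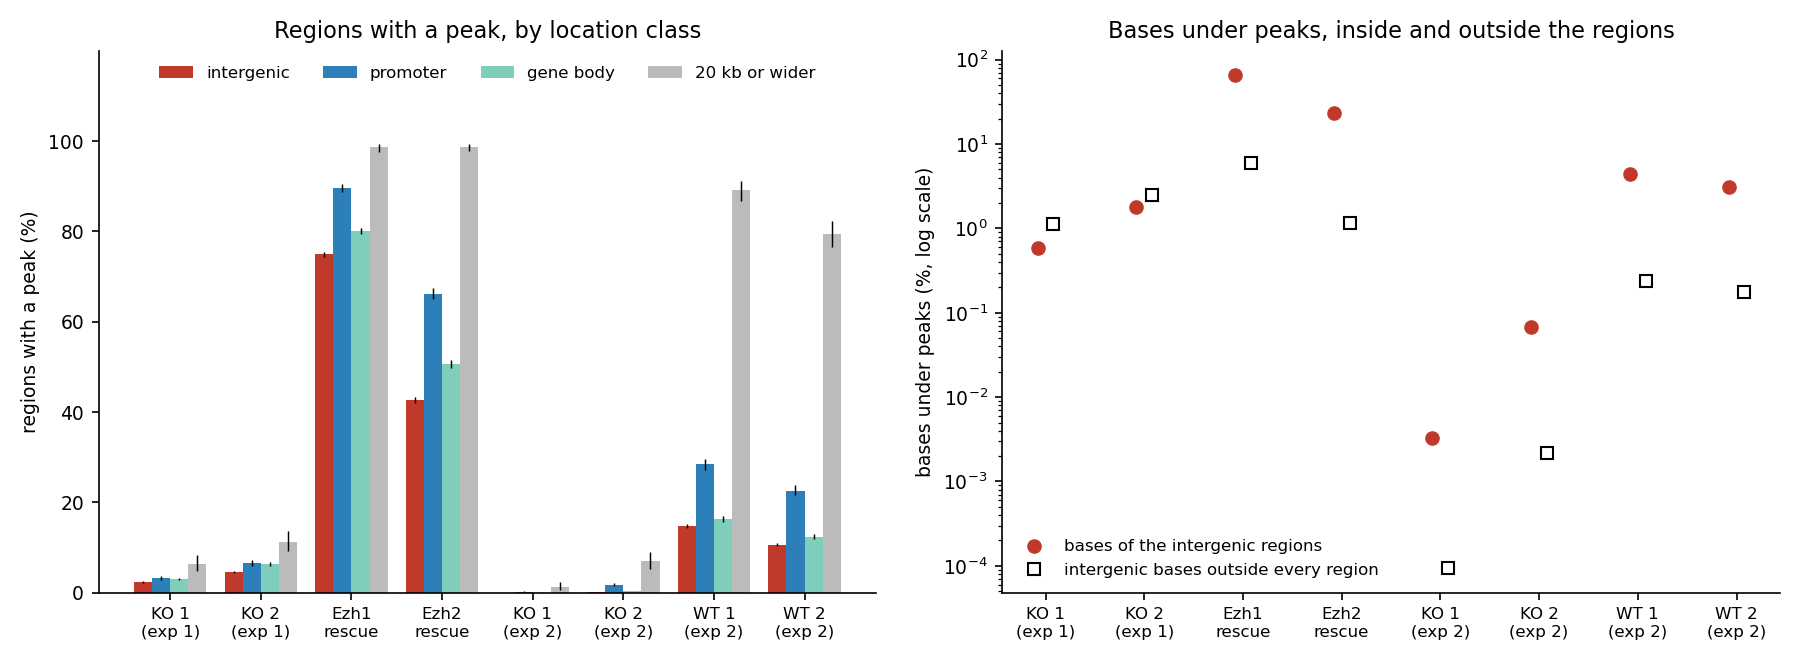
Left, the percentage of regions with a peak in each library for the intergenic, promoter, gene-body and broad classes, with Wilson 95% intervals; right, the percentage of bases under peaks inside the intergenic regions (filled circles) and in intergenic sequence outside every reproducible region (open squares) on a log scale. Inside values lie above outside values in all but the knockout libraries of experiment 1, where they are 0.587% against 1.12% and 1.80% against 2.49%.

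Around the centres of the regions, a small and narrow rise was nevertheless present in both knockout libraries of experiment 1. At the centre, 0.857% of the regions were under a peak of replicate 1 and 2.33% under one of replicate 2, against 0.529% and 1.74% at 5000 bp on the left side and 0.529% and 1.80% on the right. Both centre values still lay below the 1.12% and 2.49% of intergenic bases covered outside every reproducible region in the same libraries. In the Ezh1 rescue the centre stood at 60.7%, and at 5000 bp on either side 45.0% and 44.9% were under a peak. In the Ezh2 rescue the centre stood at 19.5%, with 13.2% and 13.0% at those distances. The flanks can hold other regions, so they are no measure of unmarked DNA.

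**Figure D2:**
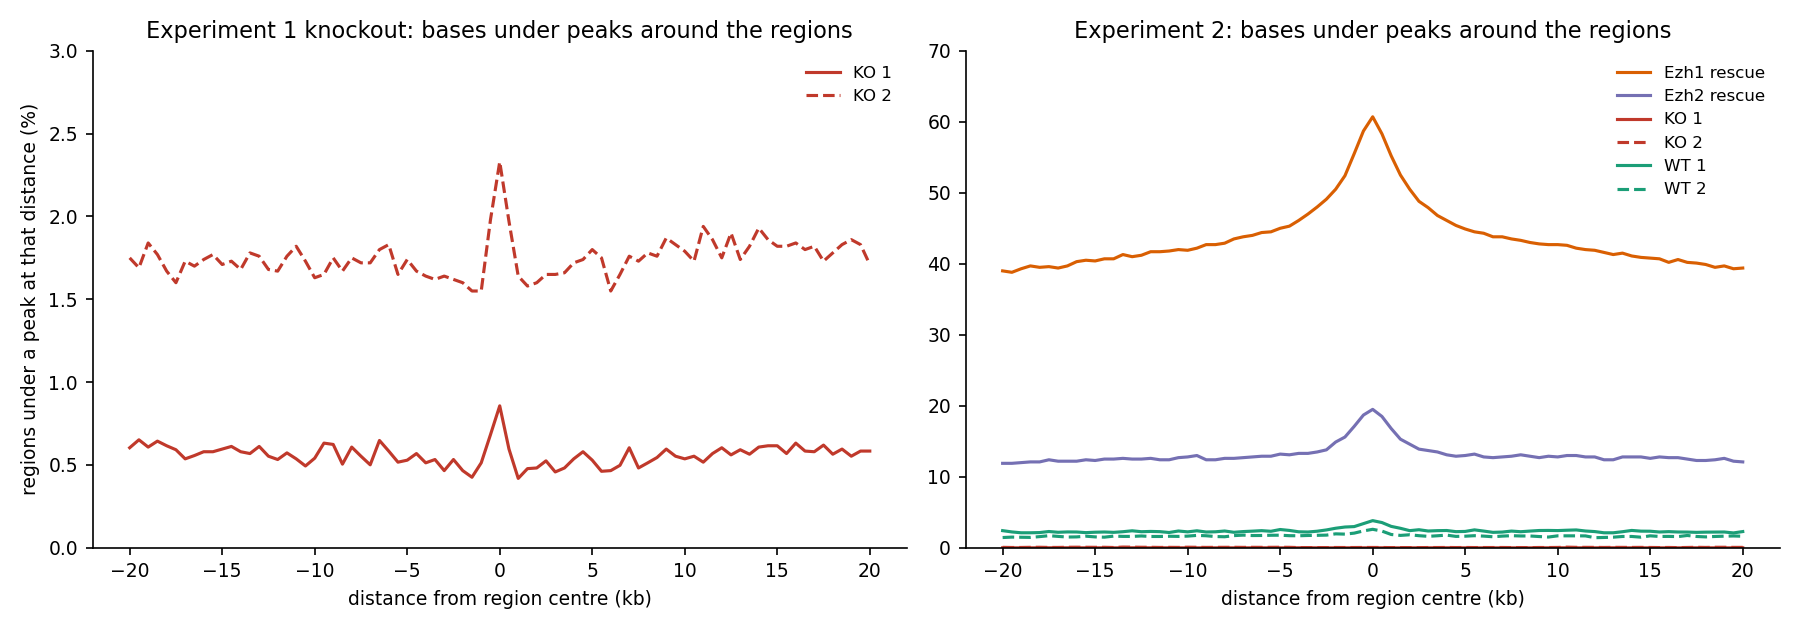
Percentage of the 25326 intergenic regions under a peak at each distance from the region's centre, for the knockout libraries of experiment 1 (left; solid and dashed lines are replicates 1 and 2) and the libraries of experiment 2 (right). Both knockout libraries show a narrow rise at the centre, to 0.857% and 2.33%, and the rescues a wider one, to 60.7% and 19.5%.

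Regions with a knockout peak in experiment 1 were GC-rich and were concentrated on a few stretches of the genome. The 496 regions with a peak in both knockout libraries had a median GC content of 47.4% and 108 of them held an island-like window, a share of 21.8%; the 24066 without any had 43.6% GC and a share of 11%. Median width was 2346 bp in regions with both knockout peaks and 1972 bp in those without any. Knockout replicates 1 and 2 covered 23.3% and 50.2% of the bases of these 496 regions. By GC content, the share of regions with a knockout peak was 1.46% in the lowest quintile (29.5 to 40% GC) and 11.8% in the highest (47.2 to 60.9% GC).

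In 10-Mb segments of the autosomes, which were chosen after the data were seen, the share with a knockout peak ranged widely. Of 235 segments with at least 20 intergenic regions, 79 had none, the median was 1.55%, and 15 were over 20%; since that share picked them, their values are a description. Those 15 segments held 1898 of the regions (7.49%) and 593 of the regions with a knockout peak (47.1%). The highest was on chromosome 5 from 120 to 130 Mb, where 98 of 125 regions (78.4%) had a knockout peak, followed by the end of chromosome 2, with 56.7% of 67 regions beyond 180 Mb and 44.7% of 123 from 170 to 180 Mb. Among the other reproducible regions of these segments the shares were 50.4% on chromosome 5, and 50.8% beyond 180 Mb and 69.0% from 170 to 180 Mb on chromosome 2. Chromosome 5 alone held 6.01% of the intergenic regions and 29.2% of those with a peak in both knockout libraries.

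The same stretches carried knockout peaks outside the regions as well. In the 15 segments, knockout replicates 1 and 2 covered 4.64% and 14.9% of the bases of the intergenic regions and 7.31% and 18.6% of the intergenic bases outside every region. On the rest of the autosomes they covered 0.231% and 0.651% inside and 0.846% and 1.78% outside. Inside values were thus below outside values in both libraries and in both parts of the genome. Wild-type peaks of experiment 1 covered 0.811% and 0.981% of the outside bases in the 15 segments and 0.416% and 0.867% on the rest. The 15 segments also stood higher in experiment 2. Its knockout replicates 1 and 2 had a peak on 0.105% and 1.32% of the regions, against 0.00427% and 0.115% elsewhere, from few peaks. Wild-type shares were 23.5% and 19.3%, against 14.0% and 9.92%. Shares were 87.3% against 73.9% with Ezh1 rescue and 61.5% against 41.2% with Ezh2 rescue. Members in the 15 segments were GC-rich, with a median of 47.8% against 43.4% elsewhere. By segment these medians ran from 45.8 to 48.9%, and in 29 segments of at least 45.8% GC whose share was 20% or less the median share with a knockout peak was 3.96%. Without the 15 segments, 2.85% of the regions had a knockout peak, with 1.29% (interval 1.01 to 1.65) in the lowest GC quintile and 5.47% (4.80 to 6.21) in the highest.

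**Figure D3:**
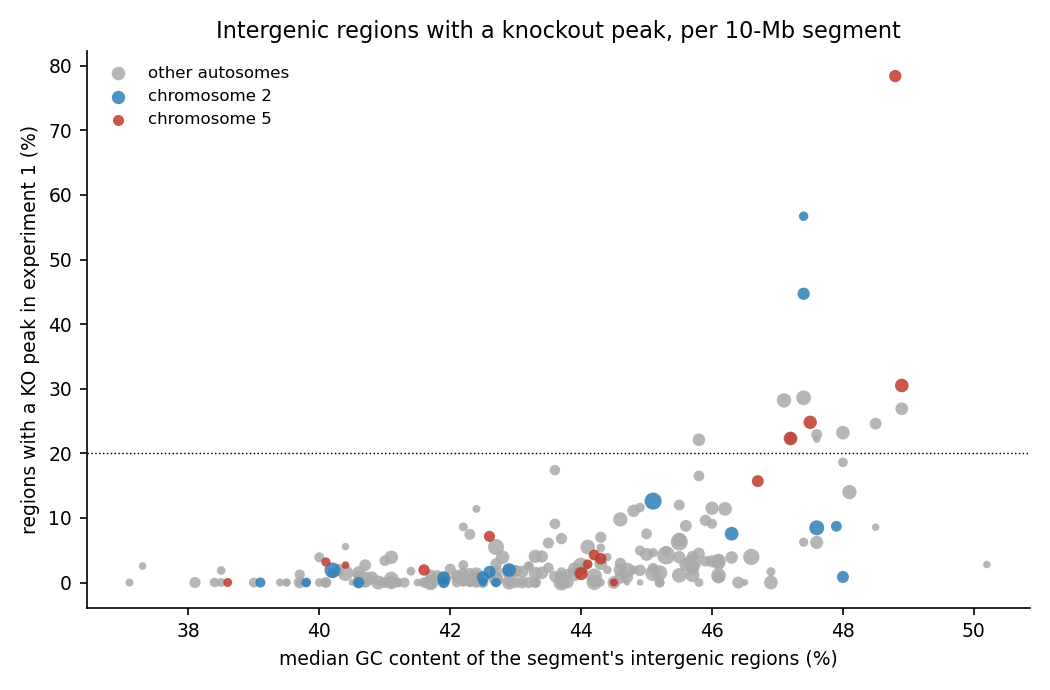
Each point is a 10-Mb segment with at least 20 intergenic regions; the x axis is the median GC content of those regions, the y axis the percentage with a peak in either knockout library of experiment 1, and point area grows with the number of regions. The dotted line marks 20%; 15 segments lie above it, the highest at 78.4% on chromosome 5 and the next at 56.7% and 44.7% on chromosome 2.

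The cluster of regions around Lhx5, a LIM-homeobox transcription factor of the developing brain, lay in the highest of these segments. It was singled out after its values were seen. All 29 regions whose nearest TSS was that of Lhx5, spread over 177 kb of chromosome 5 (chr5:120725059-120902136), had a peak in knockout replicate 2 and 27 had one in replicate 1. Knockout peaks of experiment 1 covered 35.2% and 79.9% of their bases, against 71.1% and 90.9% for wild type. In experiment 2, the Ezh1 rescue covered 61.4% of their bases and the Ezh2 rescue 43.8%, the knockout libraries 0% and 0% and the wild-type libraries 5.71% and 5.10%. The widest of them (10797 bp, 144537 bp upstream of the TSS), whose CpG-dense window is printed above, was covered to 30.2% and 54.5% in the knockout, against 74.0% and 100% in wild type, in experiment 1.

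In experiment 2, wild-type peaks were few and knockout peaks almost absent on the intergenic regions. Knockout peaks lay over 0.00328% and 0.0685% of their bases, and wild-type peaks over 4.39% and 3.12%. The means were 0.0359% ± 0.0461 in the knockout and 3.76% ± 0.897 in wild type (SD, n = 2 each), a difference of -3.72 percentage points, and the 2 groups did not overlap. The exact two-sided permutation test over libraries gave p = 0.33, the smallest value that 2 against 2 libraries allow. Knockout replicate 1 had a peak on 3 regions and replicate 2 on 52 that included those 3 (0.205% for either library), against 0.557% of all autosomal regions with a peak in either knockout library. Wild-type replicates 1 and 2 had a peak on 3729 (14.7%) and 2691 (10.6%) regions, either of them on 5123 (20.2%, against 24.3% of all autosomal regions), and both on 1297 (5.12%, against 7.64%).

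The 3 regions with a peak in both knockout libraries of experiment 2 had none in the knockout of experiment 1. A region of 576 bp near Nrbp2, a pseudokinase gene, on chromosome 15 (75933992 to 75934567) was covered to 100% in both knockout libraries, against 82.6% and 37.7% in wild type. A region of 2051 bp near C130026L21Rik on chromosome 5 was covered to 46.3% and 80.4% in the knockout, against 31.7% and 0% in wild type. A region of 7833 bp near Arhgef1 was covered to 12.8% and 17.9% in the knockout, against 0% and 10.2% in wild type. In each of the 3, which were picked for their knockout peaks, both knockout libraries covered more bases than either wild-type library.

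Most intergenic regions had a peak with Ezh1 rescue, and a smaller share had one with Ezh2 rescue. The Ezh1 rescue had a peak on 18968 regions (74.9%, Wilson 95% interval 74.4 to 75.4), against 78.7% of all autosomal regions, and the Ezh2 rescue on 10826 (42.7%, 42.1 to 43.4), against 49.0%. Where at least 50% of the region had to lie under peaks, the shares were 60.9% for the Ezh1 rescue and 14.5% for the Ezh2 rescue. Their peaks covered 65.1% and 23.3% of the bases of the intergenic regions, against 82.3% and 39.4% at promoters and 71.4% and 29.2% in gene bodies. With 1 library each the difference between the rescues has no replicate check, and its size includes the scaling of the Ezh1 rescue. That coefficient was a reduction, while the Ezh1 rescue covered more bases. How the scaling changed the peaks was not tested. For the amount of the mark the study reports the opposite order. On western blots H3K27me3 was lower with Ezh1 than with Ezh2 rescue, and along the genome it was uniformly weaker. Peak lists without heights do not measure that amount, so more covered bases do not mean more of the mark. Both rescues had a peak on 10049 regions (39.7%), the Ezh1 rescue alone on 8919 (35.2%), the Ezh2 rescue alone on 777 (3.07%) and neither on 5581 (22.0%). At least 1 rescue had a peak on 78.0% of the intergenic regions, against 81.5% of all autosomal regions, and both had one on 39.7%, against 46.3%. Regions with both were wide and GC-rich (medians 3383 bp and 45.5% GC), and those with neither narrow and GC-poor (1241 bp and 40.4%). The 777 with the Ezh2 rescue alone were also GC-poor, at a median of 41.2%. Where both had a peak, the Ezh1 rescue covered a median of 97.5% of the region and the Ezh2 rescue 38.1%, and the Ezh1 rescue covered more bases in 9012 regions (89.7%).

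GC content and width went with the share of regions that had a peak in the rescues and in the wild type of experiment 2. The choice acted on both, since the merged wild-type peaks set the width and the GC-richer promoter and gene-body regions were left out. By GC quintile, the Ezh1 rescue had a peak on 45.2% of the regions in the lowest and 93.5% in the highest, and the Ezh2 rescue on 19.8% and 65.3%. Wild type of experiment 2, either library, had a peak on 11% and 30.6%. By width, regions under 1000 bp had a peak in 58.7% of cases with Ezh1 rescue, 19.9% with Ezh2 rescue and 6.38% in either wild-type library, and those of 10000 bp or more in 93.7%, 92.8% and 72.5%. A wide region offers more bases for a peak to meet. The relation with GC content held within a width class: among regions under 1000 bp, the Ezh1 rescue had a peak on 32.2% in the lowest GC quintile and 82.7% in the highest, and the Ezh2 rescue on 7.21% and 35.2%. In the knockout of experiment 1, 4.26% of the narrowest and 7.55% of the widest class had a peak.

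Far from genes, peaks were less frequent. Within 10000 bp of a TSS the Ezh1 rescue had a peak on 79.2% of the regions and the Ezh2 rescue on 47.0%, and at 200000 bp or more on 57.3% and 29.5%. The corresponding shares were 22.9% and 14.6% for either wild-type library of experiment 2, and 5.98% and 1.95% for either knockout library of experiment 1. Regions far from genes were also GC-poorer, with medians of 44.4% within 10000 bp and 41.6% at 200000 bp or more. Within the lowest GC quintile the Ezh1 rescue shares at these distances were 50% and 32.4%, and within the highest 92.6% and 86.2%. The promoter of the nearest gene itself carried a reproducible wild-type region for 58.3% of the regions within 10000 bp and for 26.6% of those at 200000 bp or more. Of all protein-coding genes, each counted once, 20.8% had such a promoter. The first shares count regions, so a gene nearest to many regions counts many times, and they cannot be set against 20.8% as an enrichment.

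**Figure D4:**
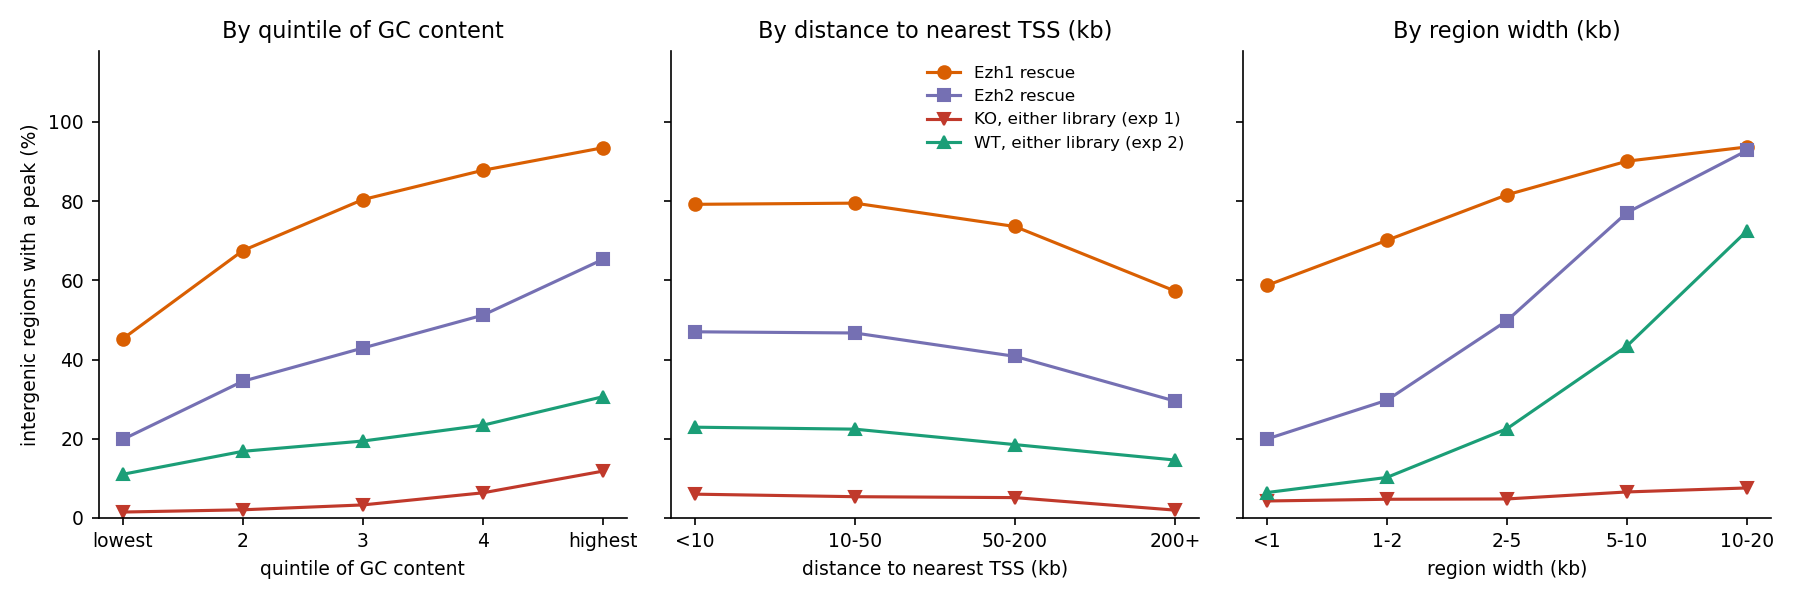
Percentage of intergenic regions with a peak, by quintile of GC content, by distance to the nearest protein-coding TSS and by region width, for the Ezh1 rescue, the Ezh2 rescue, either knockout library of experiment 1 and either wild-type library of experiment 2. The Ezh1 rescue runs from 45.2% to 93.5% over the GC quintiles and the knockout from 1.46% to 11.8%; over width the knockout runs from 4.26% to 7.55%.

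The regions were assigned to the protein-coding gene with the nearest TSS, and the intergenic sequence nearest to a gene is called its territory. By this measure 5579 of 21281 autosomal gene names (26.2%) were nearest to at least 1 region. Among transcription factors of the neural and ectodermal lineages, 42 of 56 were nearest to one, with 314 regions over 13.1% of their 8.90 Mb of territory, and among those of mesoderm and endoderm 39 of 55, with 244 regions over 9.13%. For all genes the covered share of territory was 5.49%. The median gene of the neural list had 3 regions and 13.4% of its territory covered, and the median mesoderm or endoderm factor 2 and 7.64%, while the median of all genes was 0 for both. Secreted developmental signals such as Wnt and Fgf ligands had 31 of 53 genes, 110 regions and 7.55%. Fibroblast genes had 9 of 24 and 7.17%, housekeeping genes 6 of 28 and 10.4%, blood and endothelial markers 9 of 21 and 9.83%, and epithelial genes 9 of 20 and 10.4%. Imprinted genes had 9 of 24 and 15.0%, Polycomb complex genes 7 of 26 and 7.17%, and HOX cluster genes, whose territory is small, 4 of 41 and 19%. In the HOX list, 14 of the 22 regions were nearest to Evx1, a homeobox gene beside the HoxA cluster. The median gene had 2.31% of its territory covered among secreted signals, 4.06% among blood and endothelial markers and 0 in each of the remaining lists. The lists were chosen with earlier results of these data known and carry no test.

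**Figure D5:**
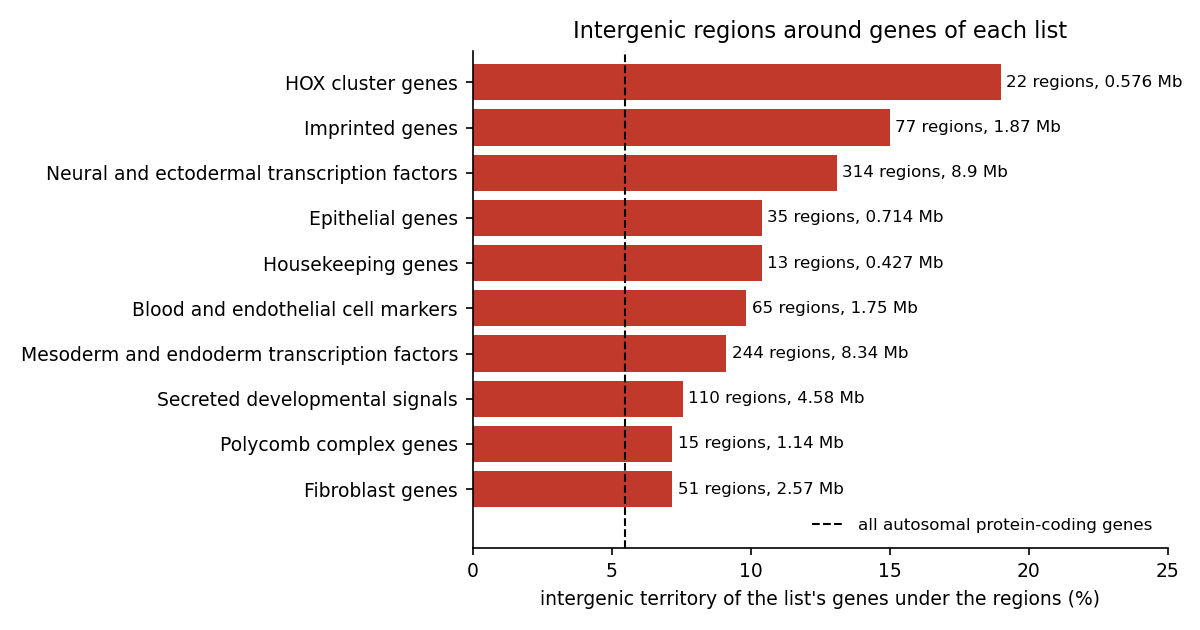
Percentage of the pooled intergenic territory of each list's genes that lay under the intergenic regions, with the number of regions and the territory in Mb beside each bar; the dashed line is the value for all autosomal protein-coding genes, 5.49%. All 10 lists lie above the line, from 7.17% for fibroblast and Polycomb genes to 19% for HOX cluster genes.

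The widest regions near neural and ectodermal factors lay by Lmx1b, Emx2, Dlx6 and Pax5. That of Lmx1b, a LIM-homeobox factor of midbrain and limb, was 19156 bp wide at chr2:33550109-33569264. It was covered to 100% with Ezh1 rescue, 43.7% with Ezh2 rescue, 0% and 0% in the knockout and 17.8% and 7.90% in the wild type of experiment 2. In experiment 1 its coverage was 3.37% and 0% in the knockout, against 89.0% and 90.6% in wild type. The region of 18014 bp by Emx2, a homeobox factor of the forebrain, was covered to 84.8% with Ezh1 rescue, 44.3% with Ezh2 rescue and 4.72% and 6.11% in wild type of experiment 2. The region of 17962 bp by Dlx6, a homeobox factor of forebrain and jaw, stood lower with Ezh1 rescue, at 40.4%, with 15.3% with Ezh2 rescue. The region of 15556 bp by Pax5, a factor of B cells and midbrain, had 87.5% and 26.4%. Emx2, Dlx6 and Pax5 had no knockout peak on these regions in either experiment.

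Among mesoderm and endoderm factors, Tcf21, a basic helix-loop-helix factor of visceral mesoderm, was nearest to 41 regions, which covered 52.7% of its territory. The widest, 19288 bp at chr10:22551742-22571029, was covered to 100% with Ezh1 rescue, 50% with Ezh2 rescue, 0% and 0% in the knockout and 6.48% and 7.00% in the wild type of experiment 2. In experiment 1 no knockout library had a peak on any of the 41 regions. A region of 17737 bp by Sox9, the master factor of cartilage, was covered to 100% with Ezh1 rescue and 64.3% with Ezh2 rescue, and to 0% and 2.24% in the knockout of experiment 1. Gata4, a zinc-finger factor of heart and endoderm, had 15 regions over 78.1% of its 0.0702 Mb of territory, of which 2 had a knockout peak. Gata5, its paralog, had 6 regions, of which 4 had a knockout peak in experiment 1. The widest of these, 17611 bp at chr2:180085260-180102870, was covered to 3.25% and 11.5% in the knockout, against 69.7% and 100% in wild type, and was the widest of all intergenic regions with a peak in both knockout libraries.

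Knockout peaks on regions near listed factors came from few genes. Of the 314 regions near neural and ectodermal factors 40 (12.7%) had a peak in either knockout library of experiment 1, but 29 of these were the regions of Lhx5 and 5 those of Neurog3, a factor of endocrine and neural precursors. Outside the 15 segments named above, 4 of 269 (1.49%) had one. For mesoderm and endoderm factors the counts were 15 of 244 (6.15%) in all, and 6 of 209 (2.87%) outside those segments. All 4 regions near Gnas, an imprinted gene for a G-protein subunit, had a peak in either knockout library, and 3 of them in both. All 4 near Myod1, the muscle-determining factor, had a peak in either library, but 0 had one in both. Gnas lay in a listed segment and Myod1 did not. For all genes the share with a peak in either library was 4.98%, and 2.85% outside the segments.

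In the HOX list, the widest region lay 27521 bp beyond the TSS of Hoxb1, the anterior gene of the HoxB cluster, at chr11:96254587-96274369 (19783 bp). It was covered to 100% with Ezh1 rescue and 65.3% with Ezh2 rescue, to 0% and 0% in the knockout and to 34.6% and 20.5% in the wild type of experiment 2. The wild-type shares were the highest in experiment 2 among the 10 widest regions, where the others ran from 0% to 14.3%. Evx1 was nearest to 14 regions over 40.1% of its territory. Its widest (14296 bp) was covered to 94.8% with Ezh1 rescue and 28.0% with Ezh2 rescue, with no peak in any knockout or wild-type library of experiment 2. Regions near Evx2 and Hoxd1, of 4419 and 2583 bp, had 58.1% and 29.0% with Ezh1 rescue and none with Ezh2 rescue.

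Regions near Cbx8, a Polycomb gene that encodes a reader of the mark, had high coverage in experiment 2. The region of 7213 bp, 4366 bp upstream of Cbx8, was covered to 100% with Ezh1 rescue, 97.2% with Ezh2 rescue, 0% and 0% in the knockout and 71.4% and 61.7% in wild type. A further region of 2651 bp, 12952 bp upstream of Cbx8, had a CpG ratio of 0.578, second among the regions of at least 1000 bp, and wild-type coverage of 70.4% and 99.4% in experiment 2. Among fibroblast genes the widest regions lay near Postn (13366 bp), Thy1 (11115 bp), Col1a2 (8394 bp) and Vim (7615 bp), none with a knockout peak in experiment 1; that of Vim, an intermediate filament gene, had 0% with Ezh1 rescue and 34.1% with Ezh2 rescue. Among imprinted genes, the region of 12579 bp near Nnat was covered to 99.2% with Ezh1 rescue and 84.4% with Ezh2 rescue. That of 9965 bp near Plagl1, a zinc-finger gene, had 0% with Ezh1 rescue and 30.6% with Ezh2 rescue.

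Genes outside the protein-coding set did not remove a region, and 1564 intergenic regions (6.18%) overlapped one. The share of all intergenic sequence under such genes is not given, so 6.18% is not a trait of the regions. By type, 486 overlapped a lincRNA and 693 a processed transcript. Sox2ot, the long transcript around Sox2, overlapped 38 regions, and a region of 3866 bp at its 5′ end was covered to 100% with Ezh1 rescue and 0% with Ezh2 rescue. Meg3, the maternally expressed RNA of the imprinted Dlk1 locus, overlapped 5, and Rian and Mirg of the same locus 1 each. A region of 1495 bp within Airn, the antisense RNA of the Igf2r locus, was covered to 100% and 76.9% in the knockout, against 100% and 78.3% in wild type, in experiment 1, and had no peak in any library of experiment 2. H19, Malat1, Neat1, Pvt1, Gas5, Snhg1 and Rmst met no intergenic region.

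Of 1468 annotated microRNA genes, 98 (6.68%) had an intergenic region within 2500 bp of the 5′ end of the annotated gene, and of the 729 outside protein-coding genes 96 (13.2%) did. That end is the hairpin's and not the start of the primary transcript. The neural list held 14 symbols, of which 8 matched the annotation and the rest were not assessed. Of these 8, 5 had one: Mir129-1, Mir129-2, Mir124a-1, Mir124a-3 and Mir9-2. Of 10 epithelial microRNA genes only Mir203 had one, and of 6 in the HOX clusters none did. Among 22 others, from a list of 29 symbols, Mir1a-1 and Mir133a-2 of the muscle lineage had one. Both lie close together on chromosome 2, and the gene nearest to their regions was Gata5. Mir133a-1 and Mir206, also of the muscle lineage, had none. Of the mature products that matched in RefSeq (GRCm38.p6), the arm usually taken as the active one is printed for each, and the opposite arms are left out. The seed, bases 2 to 8, is in capitals, since it sets which messages a microRNA pairs with. Mir129-1 and Mir129-2 give the same 5′ product.
mmu-miR-129-5p: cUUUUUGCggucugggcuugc
mmu-miR-9-5p: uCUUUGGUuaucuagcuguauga
mmu-miR-203-3p: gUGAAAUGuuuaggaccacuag
The 3 seeds differ from one another.

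Coverage differed between these microRNA loci. The region of 19242 bp at Mir129-2 on chromosome 2 (94063679 to 94082920), which holds the hairpin, was covered to 51.2% with Ezh1 rescue, 4.42% with Ezh2 rescue, 0% and 0% in the knockout and 0% and 3.12% in wild type of experiment 2. Its printed window, with 27 CpG dinucleotides, overlaps the 5′ end of the hairpin on the minus strand. The region of 12330 bp at Mir124a-1, also holding the hairpin, was covered to 98.4% with Ezh1 rescue and 14.2% with Ezh2 rescue, with no peak in the knockout or wild type of experiment 2. In experiment 1 neither of these regions had a knockout peak. The region of 6853 bp at Mir124a-3, in the highest stretch of chromosome 2, was covered to 33.2% and 64.9% in the knockout, against 95.7% and 72.5% in wild type, in experiment 1. In experiment 2 its coverage was 0% and 28.5% in the knockout and 21.9% and 0% in wild type. With Ezh1 rescue it was 100% and with Ezh2 rescue 40.1%. The region of 6100 bp at Mir9-2 had 31.8% with Ezh1 rescue and 0% with Ezh2 rescue, and that of 7272 bp at Mir203 had 100% and 11.7%.

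The regions at the extremes of position and composition varied in the rescues. The 5 widest with no peak in either rescue were GC-poor, at 37.9 to 41.0%. Of these, 2 lay upstream of Thrb, a thyroid hormone receptor, and measured 16346 and 15667 bp. They were covered to 61.1% and 95.9%, and to 84.1% and 97.6%, by wild-type replicates 1 and 2 of experiment 1, and had no peak in any library of experiment 2. The 5 regions farthest from any TSS, 1523017 to 1738629 bp from Pcdh10, Zeb2 or Acvr2a, were also GC-poor, at 34.2 to 38.7%. Among them, 2 had a peak with Ezh1 rescue, over 23.2% and 43.6% of their bases, and none had one with Ezh2 rescue, the knockout or the wild type of experiment 2. At the other extreme, the region of 1797 bp with the highest CpG ratio, 0.687, near 1700067P10Rik on chromosome 17, was covered to 100% with Ezh1 rescue and 24.4% with Ezh2 rescue, and had no knockout peak in either experiment.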

How the data were processed

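H3K27me3 was measured by ChIP-seq of MNase-treated chromatin from C2 iMEFs in 12 samples, of which 10 had a peak list and 2 were inputs without one. The deposited BED files held peak starts and ends only; per the labels and the study's methods, the authors aligned reads (75 bp SOLiD with Bowtie 0.12.8, 100 bp Illumina with Bowtie2 2.1.0) to mm9, removed duplicates, down-sampled, scaled some conditions by recovered DNA, and called peaks per sample with MACS2 2.0.10 against input. Replicates were not pooled.

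Regions, classes and overlaps (1 bp or more) were computed in Python 3.11.15 with pandas 2.3.3, NumPy 2.4.6, SciPy 1.17.1 and pysam 0.24.0, against GENCODE M1 and the mm9 sequence; 0 peaks ran past a chromosome end. Overlap code was tested on 200 simulated lists, with 0 errors. Chromosome X was left out. Groups followed the labels. Of 441 listed gene symbols, 13 had no match and 10 matched by synonym. Experiment 2 coverage was compared by exact permutation over libraries; shares carry Wilson 95% intervals. Island-like windows moved in 10-bp steps.

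The members and gene lists were chosen with earlier results of these data known. Named regions were the 10 widest; the 5 widest with both knockout lists, both wild-type lists of experiment 2, or no rescue list; the 5 of highest CpG ratio; the 5 farthest from a TSS; those at the width limit; the widest per list gene; and listed or widest non-coding genes. Not all are described, a few are not reported here, and exceptions are marked in the text. Alternatives covered merging, peak width, TSS window, gene types, overlap share, replicates and region width.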

Additional observations from a re-analysis of the deposited data

How the results depend on the processing

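The number of intergenic regions depended on how reproducibility was set. It was 13210 when the bases shared by both lists had to fill at least 50% of a region and 11772 with peaks of at least 1000 bp only. With wild-type replicate 1 or 2 left out it lay between 46840 and 47115. A single list keeps regions without a peak in the other list, and peaks that the merge had joined are counted apart. The share of each in the higher count was not tested. Joining peaks up to 1000 bp apart, both other TSS windows and the removal of any annotated gene kept it within 1.5 times of the main count.

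The share with a knockout peak in experiment 1 was 2.1% when the peak had to cover at least 50% of the region, 4.21% without chromosome 5 and 2.85% without the 15 segments, the last 2 chosen after seeing the data. With 1 knockout library left out it ran from 2.35% (without replicate 2) to 4.59% (without replicate 1). With at least 50% of the region under peaks, 60.9% of the regions counted for the Ezh1 rescue and 14.5% for the Ezh2 rescue. The Ezh1 rescue covered 65.8% of the bases of regions of at least 1000 bp and 71.7% of those of at least 5000 bp, and the Ezh2 rescue 29.2% of the bases of that wider class. The median CpG ratio of regions of at least 1000 bp was 0.171.

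With 1 library left out, the difference in covered bases in experiment 2 ran from -4.36 to -3.09 percentage points. The same difference in experiment 1 rests on the wild-type coverage that chose the regions, so its alternatives (-87.9 to -70.1) say nothing of stability. By the labels, replicates with the same number shared only that number. Their deviations correlated at -0.0104 and 0.00236 over the regions of experiments 1 and 2. Knockout libraries had no peak on most regions, so these values cannot show whether same-numbered replicates shared a batch. A replicate block leaves the differences at -79.0 and -3.72 by construction in this balanced design, and its exact sign-flip test in experiment 2 gave p = 0.50, the smallest that 2 pairs allow. Peak lists without heights leave weak signal below the caller's threshold out of every value.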

Other observations

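The genes nearest to the most intergenic regions belonged to no list. Gm826 was nearest to 61 regions, Actl7b to 58, Dhx35 to 58 and Mgmt, a DNA repair enzyme, to 57. Around Hlx, a homeobox factor of gut and blood, 51 regions covered 56.2% of 0.381 Mb of territory, against 5.49% for all genes. In all, 180 genes with at least 20 regions each held 5099 of the regions (20.1%).

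The rescues also varied along the chromosomes. Over the 235 segments of 10 Mb with at least 20 regions, the share with a peak ran from 12.2% to 98.7% in the Ezh1 rescue (median 75.2%) and from 3.57% to 82.4% in the Ezh2 rescue (median 40.7%). The Ezh1 rescue had the higher share in 232 segments and the Ezh2 rescue the same or a higher share in 3. The lowest Ezh1 rescue share was on chromosome 15 from 40 to 50 Mb, where 12.2% of 98 regions had a peak with Ezh1 rescue and 19.4% with Ezh2 rescue, against 16.3% in either wild-type library of experiment 2. That segment had a median GC content of 38.1%, and on chromosome 16 from 60 to 70 Mb, at 38.5% GC, 12.5% of 56 regions had one with Ezh1 rescue and 3.57% with Ezh2 rescue. With 1 library of each rescue, whether these segments would recur in a second library was not tested.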
